A study of Mus musculus with 24 samples.

Results

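The 10 genes from the middle of the HoxB and HoxC clusters (Hoxb4, Hoxb5, Hoxb6, Hoxb7, Hoxb8, Hoxb9, Hoxc4, Hoxc5, Hoxc6 and Hoxc8) were followed by name through peak lists of open chromatin and of an active histone mark, out of 21631 protein-coding mouse genes. All 10 were found in the mm10 annotation. A peak was assigned to a gene when its midpoint lay in the gene's span, and otherwise to the nearest protein-coding gene within 1 Mb. ATAC-seq, in which a transposase cuts accessible DNA, gave the open chromatin of 8 libraries: 3 of E14.5 Meckel's cartilage (MC), 3 of E14.5 forelimb cartilage (FL) and 2 of E12.5 mandibular processes. H3K27ac, an acetylation of histone H3 found at active promoters and enhancers, was measured by CUT&Tag in 3 libraries of each E14.5 cartilage. All of these came from wild-type C57BL/6 embryos, 50000 cells to a library, with no treatment and no transgene. MC is the cartilage rod of the lower jaw, FL cartilage prefigures the limb bones, and the E12.5 process is the whole mandibular tissue, dissected and dissociated, from which the jaw forms. The E12.5 stage and the assay are taken from the titles and the protocol, since the description field of those 2 libraries names another stage and assay.

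Hox genes encode homeodomain transcription factors that give cells their position along the head-to-tail axis, and the order of the genes in each cluster follows the order in which they are used along that axis. Neural crest cells of the mandibular arch are known to form the jaw without Hox expression, whereas limb mesenchyme arises at levels of the trunk where central Hox genes are used. In tissues where they are silent, Hox clusters are known to be held by Polycomb complexes, which compact the chromatin over many genes at once.

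Promoter sequences are shown because the 3 promoter windows at hand differed in the lists with a peak that met them: a single FL list, both E12.5 lists or none. RefSeq promoters (GRCm38.p6, the mm10 assembly, 250 bases before to 50 bases after the start, all on the plus strand) matched 3 of the 10 members. They lie at chr11:96318017-96318316 for Hoxb4, chr11:96281655-96281954 for Hoxb8 and chr15:103034145-103034444 for Hoxc4. Capitals mark the motif matches described after them.
Hoxb4: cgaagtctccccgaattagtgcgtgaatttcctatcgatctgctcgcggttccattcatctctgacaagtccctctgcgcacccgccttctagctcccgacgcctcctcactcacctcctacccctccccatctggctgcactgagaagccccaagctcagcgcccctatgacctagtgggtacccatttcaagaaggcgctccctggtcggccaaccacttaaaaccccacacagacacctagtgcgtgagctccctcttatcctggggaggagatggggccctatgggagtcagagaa
Hoxb8: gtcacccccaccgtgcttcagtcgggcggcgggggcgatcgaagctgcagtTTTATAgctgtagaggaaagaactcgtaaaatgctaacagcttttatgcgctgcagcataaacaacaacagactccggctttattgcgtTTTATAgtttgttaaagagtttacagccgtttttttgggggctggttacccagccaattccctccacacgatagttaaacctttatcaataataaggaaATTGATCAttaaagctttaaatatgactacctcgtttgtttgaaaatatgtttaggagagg
Hoxc4: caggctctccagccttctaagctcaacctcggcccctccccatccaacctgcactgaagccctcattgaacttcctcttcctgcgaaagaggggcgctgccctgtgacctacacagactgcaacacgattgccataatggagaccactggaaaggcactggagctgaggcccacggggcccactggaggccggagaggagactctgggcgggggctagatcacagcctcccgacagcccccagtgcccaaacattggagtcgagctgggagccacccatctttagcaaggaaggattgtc
The Hoxb4 window lay under a peak of FL library 2 and of no other list. The Hoxc4 window was met by peaks of both E12.5 libraries and by no MC or FL peak. Neither E12.5 peak lay over the start itself: that of library 1 ended at chr15:103034356 and that of library 2 began at 103034438. Peaks of FL libraries 2 and 3 began at 103034551 and 103034555, just past the window, so the difference rests on the window's edges. The Hoxb8 window met no ATAC peak in any list. CpG dinucleotides numbered 4.67 per 100 bases for Hoxb4, 4.33 for Hoxb8 and 3.00 for Hoxc4. The median was 2.33 over all 32851 promoters of the table, of which 63.7, 62.1 and 54.2% had fewer than these 3 windows in turn. Letters searched on both strands were TATAAA (the TATA box), TGATNNAT (Pbx and Hox), TAATTA (homeodomain), ACAAAG (Sox) and AGGGGGC (part of the CTCF motif), and by name the longer CTCF part and the retinoic acid receptor direct repeats with spacers of 2 and 5 bases. Hoxb8 held TATAAA at 2 places and TGATNNAT at 1, all on the minus strand and without overlap. Of all promoters, 13.6% held TATAAA, 8.85% TGATNNAT, 5.29% TAATTA, 18.7% ACAAAG, 10.6% AGGGGGC, 2.19% the longer CTCF part and 0.00913% either repeat. The other letters had no match in these windows.

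Both clusters also hold miRNA genes, shown because an open region of Hoxc5 contains one of them and a peak beside Hoxb9 another. Mature RefSeq sequences follow, with the seed (bases 2 to 8) in capitals.
miR-196a-5p: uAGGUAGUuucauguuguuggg
miR-10a-5p: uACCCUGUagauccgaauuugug
miR-615-5p: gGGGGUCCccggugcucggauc
miR-615-3p: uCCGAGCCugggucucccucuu
No seed is shared among these 4 arms. Mir196a-1 (chr11:96265164-96265265) lies on the far side of Hoxb9 from the other members and was under a peak of E12.5 library 1. The same mature miR-196a-5p is encoded by Mir196a-2 (chr15:102973350-102973434), between Hoxc10 and Hoxc9, which met no ATAC peak. Mir10a (chr11:96317165-96317274), between Hoxb5 and Hoxb4, met no ATAC peak. The miR-615 arms lie inside Hoxc5 (chr15:103014926-103014990) and were under peaks of FL library 2, of the combined FL list and of E12.5 library 1, and of no MC list.

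The lists behind these values differ in length. MC lists held 43205 to 54192 peaks covering 43.9 to 46.6 Mb, FL lists 47152 to 70636 peaks covering 40.7 to 53.0 Mb, and the E12.5 lists 74706 and 70042 peaks covering 85.6 and 48.2 Mb. E12.5 library 1 stood apart by its cover, and only 37.7 to 42.1% of the peaks of either E12.5 list met a peak of the other, against 54.7 to 74.9% between MC lists and 55.7 to 82.1% between FL lists. The single H3K27ac lists shared little: 5.35 to 5.89% of the peaks of an MC list and 5.68 to 6.03% of an FL list met a peak of another list of the same tissue. Read depth is unknown, since the lists give no read counts. The 15 cartilage markers had a peak in all 8 ATAC lists. Limb mesenchyme markers, 7 of which are HoxA and HoxD genes, had a peak for 7, 7 and 8 of 13 genes in MC, for 12, 13 and 12 in FL and for 10 and 10 in the E12.5 lists, and the genes without a peak in MC were all HoxA or HoxD genes. The labels do not say whether libraries came from separate animals or pools, so p-values measure only the spread between these libraries. In bulk tissue a weak opening in all cells and an opening in few of them cannot be told apart.

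Peaks of the central Hox genes were counted in each ATAC list, and MC had the most members with none. Members drew 6, 3 and 3 peaks in the MC lists, 6, 16 and 8 in the FL lists, and 14 and 8 in the E12.5 lists. The summed length was 4.33, 1.85 and 1.46 kb in the MC lists, 2.91, 10.7 and 7.22 kb in FL, and 16.1 and 3.98 kb in the E12.5 lists, so MC and FL overlapped through FL library 1. No peak of any MC list was assigned to 7 of the 10 members, no peak of any FL list to 3, and no peak of either E12.5 list to 2. Over all protein-coding genes, 22.9% had no peak in MC, 22.7% in FL and 20.6% in the E12.5 lists. Only Hoxb5 had no assigned peak in any of the 8 lists.

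**Figure D1:**
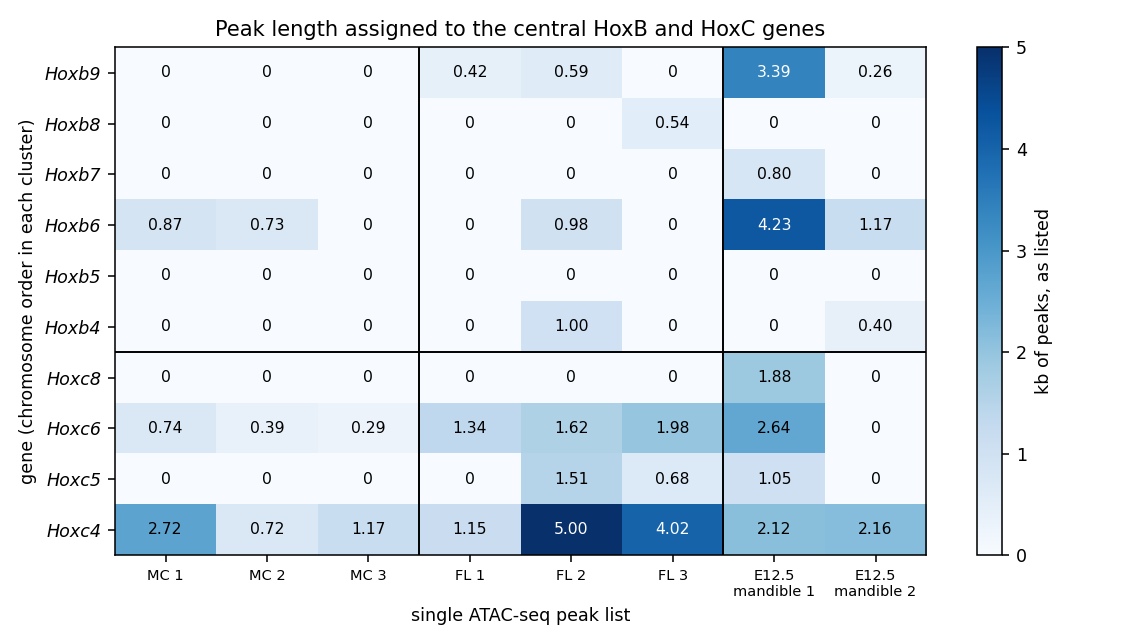
Length of ATAC-seq peaks (kb, as listed, number and colour) assigned to each of the 10 genes (rows, in chromosome order) in each single list (columns: 3 MC, 3 FL, 2 E12.5 mandible). The Hoxc4 and Hoxc6 rows hold most of the cover in MC and FL, from 0.28 kb up to 5.00 kb, the Hoxc8 row is 0 in all 6 of these lists, and HoxB rows are mostly 0 outside E12.5 mandible library 1.

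By position, the clusters differed in where the FL lists had peaks. Across the HoxC block from Hoxc8 to Hoxc4 (chr15:102990539-103036856, 46.3 kb), peaks covered 1.60, 0.842 and 0.615% of bases in MC and 2.89, 9.87 and 7.53% in FL, with no overlap between the 2 cartilages. The E12.5 lists covered 14.7 and 1.56% of it. All gene spans together were covered to 2.63, 2.72 and 2.76% in MC and to 2.32, 3.01 and 2.49% in FL, so MC lay below that share of its own list in all 3 libraries and FL above it in all 3. Across the HoxB block from Hoxb9 to Hoxb4 (chr11:96271330-96321638, 50.3 kb), peaks covered 1.74, 1.46 and 0% in MC, 0, 5.15 and 2.39% in FL, and 20.1 and 3.59% in the E12.5 lists. MC and FL overlapped in this block, and both E12.5 lists lay above all 3 MC lists. The E12.5 lists covered 5.86 and 2.73% of all gene spans, so both stood above their own list in the HoxB block and only library 1 did in the HoxC block. Block shares are as listed, and how often other blocks separate in this way was not computed. By gene and after scaling, 8.98% of the 16176 genes tested had every MC list below every FL list. For every MC list below both E12.5 lists it was 3.93%. The difference between the clusters was not tested.

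**Figure D2:**
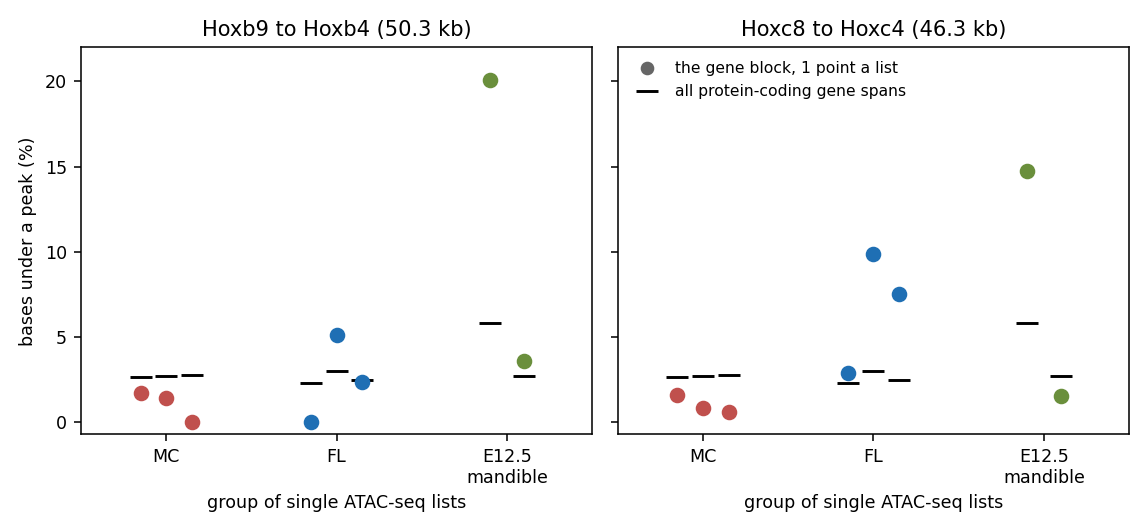
Share of bases under an ATAC-seq peak (vertical axis, %) in the HoxB block (left) and the HoxC block (right), 1 point for each single list of MC, FL and E12.5 mandible; black bars give the share of all protein-coding gene spans covered in the same list. In the HoxC block the MC points lie between 0.615 and 1.60% and the FL points between 2.89 and 9.87%.

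The comparison of MC with FL asks how jaw and limb cartilage differ at these genes. Peak length summed by gene, after each list had been brought to an equal total, was fitted with limma on log2(kb + 0.5) over 16176 genes. No gene was called in either direction at a Benjamini-Hochberg adjusted p of 0.05 (0% of genes tested; 838 had an unadjusted p under 0.05), and so no member was. The filter on low values (mean of at least 0.3 kb) passed 5 of the 10 members: Hoxb6, Hoxb9, Hoxc4, Hoxc5 and Hoxc6. Of these, Hoxc6 alone had groups that did not overlap, lower in MC, a pattern found in 8.98% of genes tested, and 0 members were higher in MC without overlap (9.17% of genes tested). The median log2 difference over the 5 members tested was -0.88, beside 0.03 over the genes tested. Over all 10 members it was -0.45, beside 0 over all protein-coding genes, with 6 members below 0, 1 above 0 and 3 at 0. That median was 0 when only peaks above the median score of each list were kept, -1.001 at a pseudocount of 0.1 kb and -0.26 without FL library 2.

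Hoxc6, which marks nerve cells and mesenchyme at forelimb level, was the member with a peak in the most lists inside its own span. It had 0.74, 0.39 and 0.28 kb in the MC lists, 1.34, 1.62 and 1.98 kb in FL, and 2.64 and 0 kb in the E12.5 lists. Every MC list was below every FL list, and the mean was 0.471 ± 0.238 kb for MC against 1.65 ± 0.324 kb for FL (SD, n = 3 each). Its log2 difference of MC minus FL was -1.20 (SE 0.51; limma p 0.0386, adjusted p 0.948). One region, at chr15:102998445-103000427 with its midpoint 1.21 kb inside the lower-coordinate end of the gene, was called in 7 of the 8 lists and absent from E12.5 library 2. Ordered by the authors' score, its peak stood 78.2, 93.0 and 90.6% of the way down the MC lists, 30.9, 20.8 and 30.0% down the FL lists and 28.1% down the list of E12.5 library 1, as a description within each list. Hoxc6 had 3 other regions, all in 1 or 2 lists and none in MC.

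Hoxc5, a partner of Hoxa5 in nerve cells of the diaphragm and the host of Mir615, had 0, 0 and 0 kb in the MC lists, 0, 1.51 and 0.68 kb in FL, and 1.05 and 0 kb in the E12.5 lists. It is listed at 0 in all MC libraries and also in FL library 1, so MC and FL met at 0. The log2 difference of MC minus FL was -1.11 (SE 0.68; limma adjusted p 1). Its single region, chr15:103013876-103015925, was called in FL libraries 2 and 3 and in E12.5 library 1. The peak of FL library 2 was 1511 bp long and stood 20.0% down its list, against 74.9% for the 678 bp peak of FL library 3.

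Hoxc4, needed in mice for the oesophagus and for the form of vertebrae, drew the most peaks of the members. It had 2.72, 0.72 and 1.17 kb in the MC lists, 1.15, 5.00 and 4.02 kb in FL, and 2.12 and 2.16 kb in the E12.5 lists, with MC and FL overlapping. The log2 difference of MC minus FL was -0.88 (SE 0.50; limma adjusted p 1). Of its 11 regions, 4 lay in the gene span, and none of those 4 was called in MC. The region at chr15:103034438-103035608, with its midpoint 1.83 kb inside the gene's higher-coordinate end, was called in FL libraries 2 and 3 and in both E12.5 lists. It begins at the end of the printed Hoxc4 promoter, whose last bases the peak of E12.5 library 2 reached. Hoxc8, which patterns vertebrae and forelimb motor neurons, was listed at 0 in all MC and FL libraries and had 1.88 and 0 kb in the E12.5 lists, in 1 region over its lower-coordinate end (chr15:102990486-102992361).

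**Figure D3:**
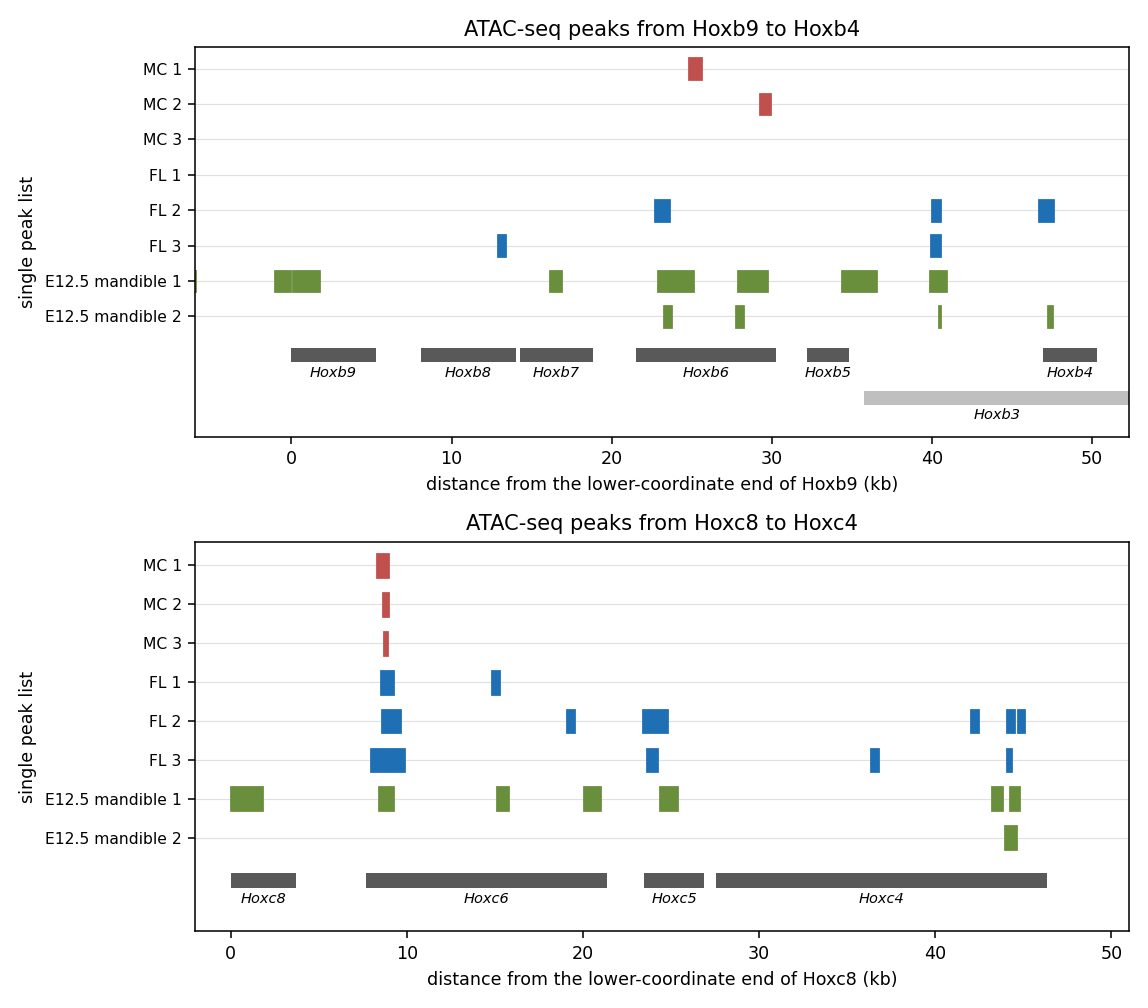
ATAC-seq peaks (bars) along the HoxB genes (top, kb from the lower-coordinate end of Hoxb9) and the HoxC genes (bottom, kb from that of Hoxc8), 1 row for each single list, with gene spans in grey. A peak near the start of the Hoxc6 span recurs in all 3 MC and all 3 FL lists, and no HoxB position does so.

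Of the HoxB members, Hoxb6, whose regulatory sequence is used in mice to mark lateral plate mesoderm, had 0.87, 0.73 and 0 kb in the MC lists, 0, 0.98 and 0 kb in FL, and 4.23 and 1.17 kb in the E12.5 lists. The log2 difference of MC minus FL was 0.49 (SE 0.60; limma adjusted p 1), the only positive one among the members. The MC peaks lay in different regions: library 1 called chr11:96293963-96296936, also called by FL library 2 and both E12.5 lists, and library 2 called chr11:96299000-96301270, which both E12.5 lists also called. In the first of these regions the MC and FL peaks did not overlap each other and were joined through the longer peak of E12.5 library 1. In both regions the MC peak met the peak of E12.5 library 1 but not that of E12.5 library 2. Hoxb9, which patterns the ribs, had 0, 0 and 0 kb in the MC lists, 0.42, 0.59 and 0 kb in FL, and 3.39 and 0.26 kb in the E12.5 lists. In FL and in E12.5 library 2 these peaks lay 10.8 to 36.2 kb outside the gene, and only E12.5 library 1 had a peak in its span (chr11:96271383-96273137, 18.8% down its list). The log2 difference of MC minus FL was -0.71 (SE 0.63; limma adjusted p 1).

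Single peaks made up the rest of HoxB. Hoxb8, whose ectopic activity in the anterior forelimb bud duplicates digits in mice, had 0.54 kb in FL library 3 and 0 in the other 7 lists. That peak (chr11:96284160-96284696) lay away from the printed promoter. Hoxb7, known from the ureteric bud of the kidney, had 0.80 kb in E12.5 library 1 and 0 elsewhere. Hoxb4, a regulator of blood stem cells, had 1.00 kb in FL library 2 and 0.40 kb in E12.5 library 2, in 1 region at its start (chr11:96317922-96318923). Hoxb5, which in mice sets the position of the forelimb, was listed at 0 throughout. The midpoint rule bears on it, because the long span of Hoxb3 starts just past Hoxb5 and runs over Hoxb4: a 2263 bp peak of E12.5 library 1 that reached 0.47 kb into Hoxb5 was assigned to Hoxb3. A second peak between Hoxb5 and Hoxb4, also assigned to Hoxb3, was present in FL libraries 2 and 3 and in both E12.5 lists and in no MC list.

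The merged peaks of the 8 lists gave 28 regions for the members out of 157342. Of the 28, 17 were called in 1 list only, against 52.1% of all regions. In at least 2 FL lists and no MC list were 2 regions, those in Hoxc5 and at the end of Hoxc4, a pattern of 5.96% of all regions, with 0 left without FL library 2 or without FL library 3. In at least 2 MC lists and no FL list were 0, against 2.03%. Every MC list shared 2 regions (15.3% of all regions), every FL list 2 (18.5%) and both E12.5 lists 4 (16.3%). No region was in every FL list and no MC list (1.62% of all regions) and none in every MC list and no FL list (0.367%). Both E12.5 lists and no MC list shared 1 region (1.59% of all regions), the one at the end of Hoxc4, and every MC list and no E12.5 list 0 (0.892%). Regions are singled out here after their values were seen, apart from the 1 called in all 8 lists.

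The 1 region called in all 8 lists (10% of all regions) was outside the genes, at chr15:103085548-103087856, with its midpoint 49.8 kb past the end of Hoxc4 in the 116 kb that separate it from Smug1, a DNA repair gene. Its best peak stood 57.4, 77.9 and 71.6% of the way down the MC lists, 49.5, 40.3 and 38.7% down the FL lists, and 65.8 and 57.3% down the E12.5 lists. The region joins a lower and a higher group of peaks: MC libraries 2 and 3 had only the higher one and E12.5 library 1 only the lower one, while every FL list had both. A neighbouring region, chr15:103089311-103090787, was called in MC library 3 and in FL libraries 2 and 3. Between Hoxc4 and the midpoint of that interval the lists held 4, 1 and 2 peaks in MC, 3, 6 and 3 in FL, and 1 and 3 in the E12.5 lists. Counting the whole interval, they held 8, 3 and 5 peaks in MC, 6, 14 and 8 in FL, and 10 and 9 in the E12.5 lists, and peaks beyond the midpoint were assigned to Smug1.

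The authors' combined H3K27ac lists held no peak in either gene block: peaks covered 0% of the HoxB block and 0% of the HoxC block in MC and in FL, while they covered 27.7% of all gene spans in MC and 30.0% in FL. These lists are pooled and carry no error. No member had an assigned peak in MC and 1 of the 10, Hoxc4, had one in FL, where 38.9% of all genes in MC and 42.3% in FL had none. The FL peak (chr15:103085473-103091711, 6.24 kb, total signal 40034) spans both recurrent ATAC regions past Hoxc4. None of the 3 single FL lists held an H3K27ac peak there. The single FL lists hold far shorter peaks, with a median length of 686 to 710 bp and a smallest total signal of 745 to 778, against 7356 bp and 25799 in the combined FL list, so a missing single-list peak cannot be read as absence of the mark. Of the combined peaks, 36.3% in MC and 41.9% in FL met a peak of any single list of the same tissue. Over the interval from Hoxc4 to Smug1 the combined lists held 2 peaks over 15.0 kb in MC and 4 peaks over 32.4 kb in FL. The nearest combined H3K27ac peak to a HoxC member was 77.3 to 119.9 kb away in MC and 48.6 to 91.2 kb away in FL. For HoxB members it was 193.6 to 240.5 kb away in MC and 192.6 to 239.5 kb away in FL, and it was the same place in both (from chr11:96072971-96077771 in MC).

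**Figure D4:**
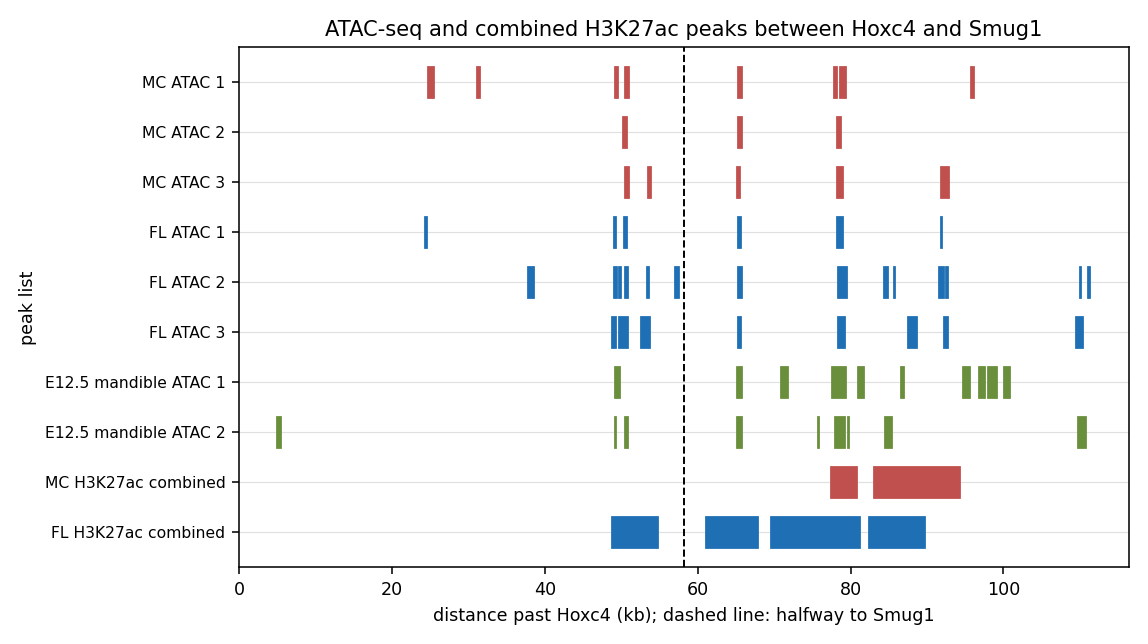
Peaks (bars) between Hoxc4 and Smug1 by distance past Hoxc4 (kb), in the 8 single ATAC-seq lists and the combined H3K27ac lists of MC and FL; the dashed line marks the midpoint that divides peaks between the 2 genes. The ATAC-seq cluster near 50 kb is present in all 8 lists and lies under an H3K27ac peak of FL and none of MC.

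In the single H3K27ac lists, limma called 0 of 8645 genes in either direction (0%; 654 had an unadjusted p under 0.05; 13 called without MC library 3, 12 with the replicate number as a block), and 1 of the 10 members, Hoxc4, passed the filter of a 1 kb mean. Hoxc4 had 1, 3 and 7 peaks in MC and 1, 2 and 6 in FL, which overlap, with a log2 difference of MC minus FL of 0.42 (SE 0.61; adjusted p 0.897). No member was higher in MC without overlap (6.34% of genes tested) or lower (5.95%). Inside the members' spans the lists held 2, 1 and 3 peaks in MC and 3, 1 and 1 in FL. In MC these lay in Hoxb6, Hoxb9, Hoxc4 and Hoxc6, and in FL in Hoxb7, Hoxb8, Hoxb9 and Hoxc4. The one placed highest was a 1135 bp peak in Hoxb9, 3.62% down the list of FL library 1, and a peak of the same list (chr11:96281538-96282418) covered the printed Hoxb8 promoter. Hoxb4, Hoxb5 and Hoxc5 had no assigned peak in any of the 6 lists.

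The comparison of MC at E14.5 with the mandible at E12.5 follows the jaw through time and shares the MC lists with the one above. limma called 0 of 16176 genes (0%; 951 at an unadjusted p under 0.05). Hoxb6 differed by -1.18 (SE 0.67, adjusted p 0.701) and Hoxb9 by -1.48 (SE 0.71, adjusted p 0.701) on the log2 scale. Both were lower in all 3 MC lists than in both E12.5 lists, a pattern of 3.93% of genes tested. For Hoxb9 the value of E12.5 library 2 rests on 1 peak of 263 bp, 36.2 kb outside the gene. That peak stood 99.6% down its list, and the Hoxb9 span itself was at 0 there, as in MC. Hoxc4, Hoxc5 and Hoxc6 differed by -0.11, -0.58 and -0.01, with overlapping lists. The median over the 5 members tested was -0.58, beside 0.23 over the genes tested. Over all 10 members it was -0.46, beside 0.0052 over all protein-coding genes. This median over the 10 members was 0 without E12.5 library 1 and -0.996 without E12.5 library 2. Without E12.5 library 2, limma called 4017 genes, among them Hoxb9 (-2.33, adjusted p 0.0353), with the lone E12.5 list assumed to vary like the other groups. Hoxb9 averaged 0 kb of scaled cover in MC, 0.363 kb in FL and 1.14 kb in the E12.5 lists, so it passed the filter through the group in which it is high, and the call supports nothing further. Without E12.5 library 1, Hoxb9 differed by -0.64 and 0 genes were called. Skeletal muscle markers also differed between the E12.5 libraries: their summed scaled cover reached at most 17.1 kb in an MC list and 20.5 kb in an FL list, and was 52.8 and 19.6 kb in the E12.5 lists, with 7 to 9 of 9 genes having a peak in each list. Other marker lists differed too: summed scaled cover in E12.5 libraries 1 and 2 was 21.2 and 46.0 kb for blood and 28.4 and 39.1 kb for endothelium. Neuron and Schwann cell markers were at 25.8 and 35.0 kb, and cartilage markers, the other way, at 111.9 and 98.8 kb. The part of any of these markers in the result was not tested.

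The comparison of FL with the E12.5 mandible shares lists with both others and is set beside them. limma called 0 of 16176 genes (0%; 2085 at an unadjusted p under 0.05; 6312 called without E12.5 library 2). Hoxb6 differed by -1.68 (SE 0.67; p 0.0300, adjusted p 0.378) and was lower in all 3 FL lists than in both E12.5 lists (9.74% of genes tested). Hoxc6 differed by 1.19 (SE 0.57; adjusted p 0.393), and by 2.22 without E12.5 library 1 and 0.17 without E12.5 library 2. Hoxc4 differed by 0.77 (adjusted p 0.479), Hoxc5 by 0.53 (adjusted p 0.692) and Hoxb9 by -0.77 (adjusted p 0.549), with overlapping lists. The median over the 5 members tested was 0.53, beside 0.25 over the genes tested. Over all 10 members it was 0.04, beside 0 over all protein-coding genes, and -0.22 without FL library 2.

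The combined ATAC lists, pooled by the authors, placed the members' cover by cluster. The MC list held 2 peaks over 0.761 kb, in Hoxc6 (0.322 kb) and past Hoxc4 (0.439 kb). The FL list held 6 peaks over 5.43 kb, all assigned to Hoxc4, Hoxc5 or Hoxc6. The E12.5 list held 8 peaks over 8.55 kb, of which 4 were in HoxB (Hoxb6 2.92 kb and Hoxb9 1.66 kb) and 4 in HoxC (Hoxc4, Hoxc6 and Hoxc8). HoxB members had combined ATAC peaks in the E12.5 mandible and 0 in either cartilage, and a combined FL peak of 428 bp between Hoxb5 and Hoxb4 was assigned to Hoxb3. The combined E12.5 list is also the largest, covering 64.4 Mb against 35.8 Mb in MC and 41.0 Mb in FL. Of the 2 single E12.5 lists, library 1 alone had a peak that met its Hoxb9, Hoxc6 and Hoxc8 peaks. The same held for its Hoxb6 peak at chr11:96299760-96300612. Single lists of MC libraries 1 and 2 and of FL libraries 1, 2 and 3 did hold a peak assigned to a HoxB member.

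Of the other 9 HoxB and HoxC genes, 4 passed the filter and none was called by limma in any ATAC comparison. Hoxb1, used in the hindbrain, was the only one with a peak in all 8 lists, at 2.10, 1.11 and 1.71 kb in the MC lists, 1.14, 0.96 and 1.80 kb in FL, and 1.18 and 1.08 kb in the E12.5 lists. Hoxb3 had 0.79, 0 and 0 kb in the MC lists, 0, 0.60 and 0.67 kb in FL, and 8.49 and 0.24 kb in the E12.5 lists. Hoxb2 was listed at 0 throughout. On the far side of Hoxc8, Hoxc9, Hoxc10, Hoxc11 and Hoxc12 were at 0 in MC libraries 1 and 2 and in FL libraries 1 and 3. MC library 3 had 1.37 kb in Hoxc10 and 0.48 kb in Hoxc11. FL library 2 had 0.41 kb in Hoxc9 and 0.30 kb in Hoxc10. In E12.5 library 1, Hoxc9, Hoxc10 and Hoxc11 had 2.34, 1.46 and 1.53 kb. In E12.5 library 2, Hoxc9 had 0.54 kb and Hoxc12 0.58 kb. Hoxb13 and Hoxc13, the last genes of their clusters, were also at 0 in MC libraries 1 and 2 and in FL libraries 1 and 3. They had 0.89 and 0.32 kb in MC library 3 and 0.21 and 1.47 kb in FL library 2. The E12.5 values were 1.44 and 1.29 kb in library 1 and 0 and 1.02 kb in library 2.

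Genes that act with or on Hox clusters were read in the same fits. Of 9 Hox cofactors (Pbx, Meis and Pknox genes), 9 were tested and 0 called in MC against FL, with 5 above and 4 below 0; Pbx4 had the smallest p (1.37, SE 0.40; adjusted p 0.948). All 20 Polycomb and trithorax regulators were tested and 0 called in any ATAC comparison. Jarid2, a Polycomb cofactor, differed by 1.02 in MC and by 1.16 in FL against the E12.5 mandible (adjusted p 0.701 and 0.378), and the 2 values share the E12.5 lists. Of 12 activators of Hox clusters, 11 were tested and 0 called, and of the 5 genes that flank the clusters 5 were tested and 0 called. The genes outside both clusters with the profile over the 8 ATAC lists closest to the members' mean profile were Lsm3, Adnp, Olfml2a, Rnd2 and C1ql2, with root mean square differences of 0.16 to 0.18 on the centred log2 scale, beside a median of 0.69 over all genes tested.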

How the data were processed

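The submitters' processing notes name Trim Galore, Bowtie2, SAMtools, Genrich (for ATAC-seq), SEACR (for CUT&Tag) and the mm10 build; versions and thresholds are not given in the sources used here. The deposited ATAC lists give the authors' peak score, with no value under 200, and a −log10 p per peak. The deposited H3K27ac lists give the authors' total signal per peak. Scores and signals served only to rank or filter peaks within a list. Each library has a list, and the authors also deposited 1 combined list per group. Hi-C and 4C samples were not analysed here.

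Each peak on the autosomes and X was assigned whole, by its midpoint, to the smallest protein-coding gene span holding it, or else the nearest within 1 Mb. Gene spans carry no strand in the annotation used. Length per gene, scaled to equal totals, was fitted as log2(kb + 0.5) with limma 3.58.1 (R 4.3.3; eBayes with trend), all 8 ATAC lists in 1 fit, and only genes averaging at least 0.3 kb (ATAC) or at least 1 kb (H3K27ac) were kept. Peaks of the 8 lists were merged into regions at 1 bp overlap. Python 3.11.15 was used. The fit was tested on simulated data. The members and gene lists were chosen with earlier results of these data known. All members are named; other HoxB and HoxC genes are named, and of other lists at most 3 genes with the smallest p. Alternatives covered the pseudocount, filters, scaling, assignment, list length, score cut, cover of merged regions, the replicate block and leaving out each library.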

Additional observations from a re-analysis of the deposited data

How the results depend on the processing

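Depth is unknown, and 5 of the 10 members have peaks in at most 2 of the 8 ATAC lists. limma called 0 genes for MC against FL under every alternative run. Leaving out 1 library gave 0 to 4017 calls for MC against E12.5 and 0 to 6312 for FL against E12.5 (the highest without E12.5 library 2). For H3K27ac it gave 0 to 13 (13 without MC library 3 and 1 without FL library 1), with 8 at a pseudocount of 2 kb, 1 with every gene covered and 12 with the replicate block. The labels do not say that a replicate number marks a shared source. Deviations of same-numbered MC and FL ATAC lists correlated at 0.04 to 0.05, too low to treat as pairs, although each MC list correlated best with the FL list of its own number, a hint from the data alone. The block left 0 calls in the 3 ATAC comparisons.

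The members' median for MC minus FL was -0.57 to -0.26 when a library was left out, but -1.001 at a pseudocount of 0.1 kb, -0.16 at 2 kb, -0.20 near spans, -0.18 at equal list lengths and 0 in the higher scores. For MC minus E12.5 it was -0.996 to 0 without single libraries, -1.22 at 0.1 kb and 0 at equal list lengths, and for FL minus E12.5 -0.22 to 0.17. For MC minus E12.5, Hoxc6 turned to 0.55 at a pseudocount of 0.1 kb, 0.51 by number of peaks, 0.0081 within 100 kb, 0.025 near spans (within 5 kb of them), 0.17 at equal list lengths and 0.0023 with the replicate block, and spanned -1.03 to 1.02 without single libraries. Hoxc4 turned to 1.17 at equal list lengths and spanned -0.52 to 0.22. For FL minus E12.5, Hoxc4 turned to -0.15 near spans, Hoxb9 spanned -1.62 to 0.072, Hoxc5 -0.054 to 1.11 and Hoxc6, with no turn, 0.17 to 2.22. The cause of these turns was not tested.

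Regions numbered 16 at equal list lengths, 10 in the higher scores (above the list's median) and 17 near spans, and those in 1 list 11, 5 and 10. Regions in every MC list, 2 as reported, were 0 when a list's peaks had to cover at least 50% of the merged region. They were 1 at equal lengths, 0 in the higher scores and 1 near spans. Regions in every FL list, also 2, were 0 at that cover, 1 in the higher scores and 1 near spans (2 to 5 without single libraries). Those in every E12.5 list were 4, and 1, 0 and 0 at that cover, equal lengths and higher scores (4 to 14 without single libraries). Those in at least 2 FL and no MC lists were 1 at that cover and 1 at equal lengths (0 without FL library 2 or 3, otherwise up to 3). Combined kb over the members in the higher scores was 0 in MC, 1.16 in FL and 1.28 in E12.5, and 0 for FL H3K27ac; scaled to equal totals it was 1.00, 6.24, 6.25 and 5.92. Counting only bases inside the members' own spans, chosen after seeing the data, left 1.61, 1.12 and 0.28 kb in the MC lists, 1.34, 6.08 and 4.03 kb in FL and 14.1 and 2.29 kb in the E12.5 lists.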
